A study of Arabidopsis thaliana with 12 samples.

Results

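The transcripts described here are the photosynthesis messages of the Arabidopsis plastid genome: the RNAs for subunits of photosystem I (psa genes), photosystem II (psb), the cytochrome b6f complex (pet), the ATP synthase (atp), the NADH dehydrogenase-like complex NDH (ndh) and the large subunit of Rubisco (rbcL). They were chosen as every probe set that was paired with exactly 1 gene, that gene lying on the plastid genome and its symbol starting with one of these prefixes. This rule found 43 genes among 18465 probe sets, of which 10396 had exactly 1 gene: 5 of photosystem I, 15 of photosystem II, 6 of cytochrome b6f, 6 of the ATP synthase, 10 of NDH and 1 of Rubisco. The reference table (assembly TAIR10.1) lists 44 such genes, and ndhB, which lies on the plastid genome in both copies of an inverted repeat, was read only by a probe set for both copies and is left out. Each of the 43 genes had a single probe set.

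RNA came from whole seedlings of Arabidopsis thaliana, 7 days old, grown at 22 °C on plates with 0.5x MS salts and 1% sucrose. The control groups stayed untreated and the heat groups spent 1 h at 37 °C. Both conditions were applied to 3 lines, namely QK, which is a mutant, and Ws and Col-0, which are natural accessions, with 2 biological replicates per group from a repeated experiment, so that 6 groups and 12 Affymetrix arrays were compared. In the literature QK denotes a mutant that lacks several heat shock factors of class A1, transcription factors that switch on the heat response, and that carries insertion alleles from both accessions. The labels give no alleles, and a difference between QK and either accession therefore cannot be told apart from a difference in accession background. The disrupted genes were not analysed here.

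Chloroplasts keep a small genome of their own. It encodes the core subunits that hold the pigments and redox centres of the photosynthetic complexes, while the nuclear genome supplies most other subunits, the antenna proteins and the small subunit of Rubisco. Plastid genes lie in clusters that are transcribed together into long RNAs, and these are then cut, spliced, edited and trimmed by nuclear-encoded proteins, so that the final amount of each message depends on its stability as well as on transcription. Labelling for these arrays follows the standard Affymetrix protocol, which is designed for RNAs with a poly(A) tail, whereas most plastid messages carry no stable tail. In a whole-seedling sample, fewer cells of a type and less RNA per cell cannot be told apart.

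The deposited values are signal intensities on a linear scale, with array medians between 75.6 and 87.3 and a highest signal of 18418. Their number, 2 arrays per group, limits the precision of every comparison. Both arrays labelled Col-0 replicate 2 went against their treatment labels: 10 of 10 measured heat-induced genes were brighter in the array labelled control than in the one labelled heat, whereas 10 of 10 were brighter after heat in Col-0 replicate 1 and in both Ws replicates. The main fit therefore used the other 10 arrays, and values with all 12 arrays as labelled are given beside it where they differ. The heat-induced genes do not settle the QK labels. In QK replicate 1 most were slightly brighter after heat (HSP17.6C 11.3 to 18.2), but not all (HSP26.5 12.5 to 10.2). The QK heat arrays also differed from each other, with HSP17.6C at 18.2 in replicate 1 and 914.7 in replicate 2. Of the nuclear photosynthesis genes listed for comparison, 12 of 66 were measured. The summed signal of LHCB4.1 and LHCB4.2, antenna proteins of photosystem II and the measured markers of green tissue, was 9735.9 to 17092.4 in the replicate 1 arrays and 11421.7 to 18254.9 in the replicate 2 arrays. The root markers PYK10 and EXPA7 summed to 1769.2 to 6155.0 and to 1438.9 to 6973.6 in the same arrays.

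The brightness of a probe set depends on its probes as well as on the RNA, so each gene is followed across arrays only. Below, brightest and dimmest name the probe sets whose values are shown for each complex and say nothing of RNA amounts. Probe sets entered the test when at least 2 arrays showed them above the array's 35th percentile, which held for 42 of the 43 genes. The exception was ndhF, a proton-pumping membrane subunit of NDH, the dimmest of its complex. It read 6.1, 7.3, 7.8, 7.4, 7.0 and 10.4 in the replicate 1 arrays, in the order Col-0 control, Col-0 heat, Ws control, Ws heat, QK control and QK heat, and 6.7, 7.2, 7.4, 7.0, 7.0 and 9.5 in the replicate 2 arrays. The 35th percentile lay between 40.3 and 47.0 in the 12 arrays. All 6 replicate 1 arrays of petG and ndhH lay below it, so both entered through replicate 2 arrays alone, and petD and atpI had a single replicate 2 array above it. A gene was called at an adjusted p under 0.05 with a change of at least 2-fold of the signal plus 16, the constant added before taking log2.

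These transcripts differed most between the repeats of the experiment. With the replicate number as a term in the model, 20 of 42 genes were called higher in replicate 2 and 2 were called lower, where 2.49% of all 13631 tested probe sets were called higher and 2.45% lower (limma, Benjamini-Hochberg adjustment over all tested probe sets). The median log2 difference, replicate 2 minus replicate 1, was 0.87 over the 42 genes and -0.01 over all probe sets. At an adjusted p under 0.05 without a minimum fold, 31 of the 42 genes passed, against 25.8% of all probe sets. The difference ran the same way in every pair of arrays with the same label for most genes: 28 were higher in replicate 2 in 6 of 6 pairs and 5 were lower in 6 of 6. Both Col-0 pairs hold a replicate 2 array that went against its treatment label, so they may not match in temperature. The share of all probe sets that ran the same way in 6 of 6 pairs is not given here. With all 12 arrays, 21 genes were called higher and 2 lower, against 2.65% and 2.71% of all probe sets, and 21 of the called genes were the same. The genes called in one fit alone were psbM with 10 arrays and ndhH and ndhK with 12. Leaving out single arrays left 18 to 22 calls, and those of atpH, petG, psbM, ndhJ, rbcL and psbD were lost without one array or another. With 10 arrays each Col-0 array is alone in its group, so leaving it out does not change the estimated replicate difference. Over the 38 genes with at least 2 arrays above the percentile in each replicate number, which leaves out petG, ndhH, petD and atpI, 19 were called higher and 1 lower, against 2.35% and 2.29% of 12366 probe sets that met the same condition. This count was added after the values had been seen. The median difference of the 38 genes was 0.99.

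**Figure D1:**
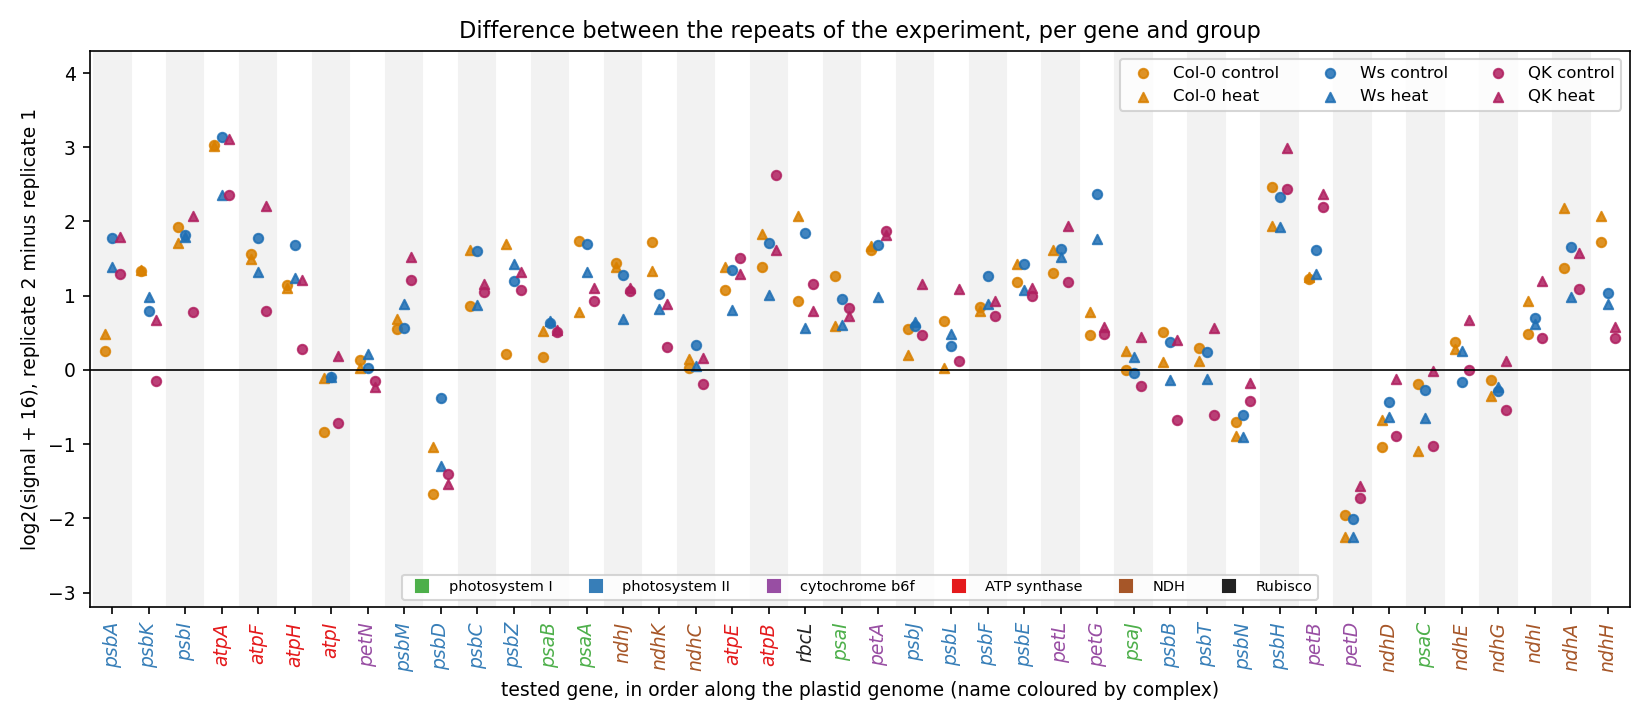
Difference in log2(signal + 16) between replicate 2 and replicate 1 (y axis) for each of the 42 tested genes in their order along the plastid genome (x axis, names coloured by complex), with 1 point per line and temperature. For 28 genes all 6 points lie above 0; those of petD and psbD all lie below it, beside neighbours (petB, psbC) whose points all lie above.

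The ATP synthase makes ATP from the proton gradient across the thylakoid membrane. Of its 6 plastid-encoded subunits 5 were called higher in replicate 2, with a median log2 difference of 1.38. The gene with the largest difference of all was atpA, the alpha subunit of the catalytic head. Its signal was 395.6, 464.9, 491.3, 568.0, 313.0 and 332.6 in the replicate 1 arrays, in the order Col-0 control, Col-0 heat, Ws control, Ws heat, QK control and QK heat. In the replicate 2 arrays, in that order, it was 3358.6, 3875.5, 4459.8, 2974.2, 1662.6 and 2992.2. Every replicate 2 array thus lay above every replicate 1 array, and within pairs the ratio of signals ran from 5.24 to 9.08. The fitted difference of atpA was 2.74 on the log2 scale (SE 0.171, limma adjusted p = 0.000374), a 6.68-fold change.

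The catalytic beta subunit atpB differed by 1.74 (SE 0.235, limma adjusted p = 0.00425), from a median of 2560.6 over the 6 replicate 1 arrays to 7985.8 over the 6 replicate 2 arrays. Its neighbour atpE, the epsilon subunit and the brightest probe set of the complex, was measured at 3506.5, 3196.3, 3393.9, 4041.1, 2750.3 and 2979.4 in replicate 1, groups in the order given for atpA. In replicate 2 it was measured at 7401.4, 8411.5, 8667.9, 7117.5, 7818.3 and 7326.3. The ranges of atpE did not overlap, and its log2 difference was 1.24. The membrane-sector subunits atpF and atpH, which carry the stalk and the rotor ring, differed by 1.53 and 1.103. The remaining membrane subunit atpI, the dimmest of the complex, did not follow. Its replicate 1 signals were 64, 36, 47.9, 55.7, 41.9 and 22.9 and its replicate 2 signals 29.0, 32.3, 44.0, 51.0, 19.3 and 28.5, and its log2 difference was -0.18 (95% interval -0.55 to 0.20).

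Cytochrome b6f passes electrons from photosystem II towards photosystem I. Of its 6 plastid-encoded subunits 4 were called higher (petB, petA, petL and petG) and 1 lower (petD), with a median difference of 1.43. Of these, petG entered the test through replicate 2 arrays alone and petD mainly through replicate 1 arrays, the arrays where each is brighter. The cytochrome b6 apoprotein petB, the brightest probe set of the complex, read 2924.5, 3249.3, 2189.6, 2422.5, 1423.3 and 1413.2 in replicate 1. It read 6847.0, 7743.5, 6750.9, 5931.9, 6561.5 and 7395.4 in replicate 2, with no overlap, and its log2 difference was 1.87 (SE 0.184, limma adjusted p = 0.00147).

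Subunit IV, petD, is encoded directly after petB, and its probe set moved the other way. It read 156.8, 200.9, 175.7, 285.3, 117.1 and 99.9 in replicate 1 and 28.4, 29.5, 31.7, 47.4, 24.4 and 23.1 in replicate 2. All replicate 2 arrays lay below all replicate 1 arrays, within pairs the replicate 2 signal was 0.147 to 0.231 of the replicate 1 signal, and the log2 difference was -1.89 (SE 0.130, limma adjusted p = 0.000504). The probe set entered the test mainly through replicate 1: 6 of those arrays lay above the percentile of the filter, against 1 replicate 2 array. With replicate 2 signals this dim, the size of the difference depends on the constant. Cytochrome f, petA, differed by 1.59. The small subunit petL differed by 1.57. The small subunit petG, the dimmest of the complex, was tested only because its replicate 2 arrays in Ws were bright enough, and the size of its difference depended on the constant, at 1.96 with a constant of 1, 1.297 with 16 and 0.67 with 64. In Ws it went from 9.9 and 14.3 (control and heat) in replicate 1 to 117.9 and 87.1 in replicate 2, while Col-0 read 8.6 and 12.7 against 18.2 and 33.1 and QK 11.2 and 14.8 against 21.9 and 29.8. The third small subunit, petN, showed no call, with a difference of -0.03 (95% interval -0.28 to 0.22).

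Photosystem II splits water and feeds the electrons onward. Of its 15 genes 7 were called higher, 1 lower and 7 were not called, with a median of 0.95. The largest difference was that of psbH, a small phosphoprotein, whose signal ran from 209.0 to 573.8 (median 340.35) in the 6 replicate 1 arrays and from 1329.6 to 2253.2 (median 1881.1) in the 6 replicate 2 arrays. Its log2 difference was 2.42 (SE 0.171, limma adjusted p = 0.000548). The D1 reaction centre protein psbA, which is damaged by light and replaced continuously, ran from 1040.4 to 2089.9 (median 1805.1) and from 2266.1 to 5963.6 (median 3511.1). The groups did not overlap and the log2 difference was 1.56 (SE 0.111, limma adjusted p = 0.000565). Also called higher were psbI (1.62), psbZ (1.25), psbC, the CP43 antenna protein (1.175), psbE, a cytochrome b559 subunit (1.15), and psbM (1.05).

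The brightest photosystem II probe set, psbM, read 4402.7, 4136.9, 3638.8, 3386.0, 2147.4 and 2034.9 in replicate 1 and 6443.1, 6655.0, 5400.0, 6299.5, 4992.2 and 5871.8 in replicate 2. These ranges did not overlap, but with all 12 arrays its log2 difference was 0.90, below the minimum fold. The D2 reaction centre protein psbD was the one photosystem II gene called lower. It read 3750.6, 3745.0, 3264.7, 3788.8, 2039.4 and 2206.0 in replicate 1 and 1162.4, 1816.1, 2500.6, 1535.2, 760.6 and 746.9 in replicate 2. Each replicate 2 array lay below its partner, with an overlap between lines, and the log2 difference was -1.16 (SE 0.193, limma adjusted p = 0.00861). The dimmest, psbN, an assembly factor encoded on the opposite strand between psbT and psbH, read 87.8, 84.5, 86.5, 101.3, 48.2 and 51.8 against 47.8, 38.1, 51.1, 47.0, 32.1 and 43.9. It was lower in 6 of 6 pairs by -0.53 (limma adjusted p = 0.0303), which is below the minimum fold. Neither psbB (CP47), at -0.01 with a 95% interval of -0.47 to 0.45, nor psbT, at 0.02 with an interval of -0.44 to 0.48, was called.

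**Figure D2:**
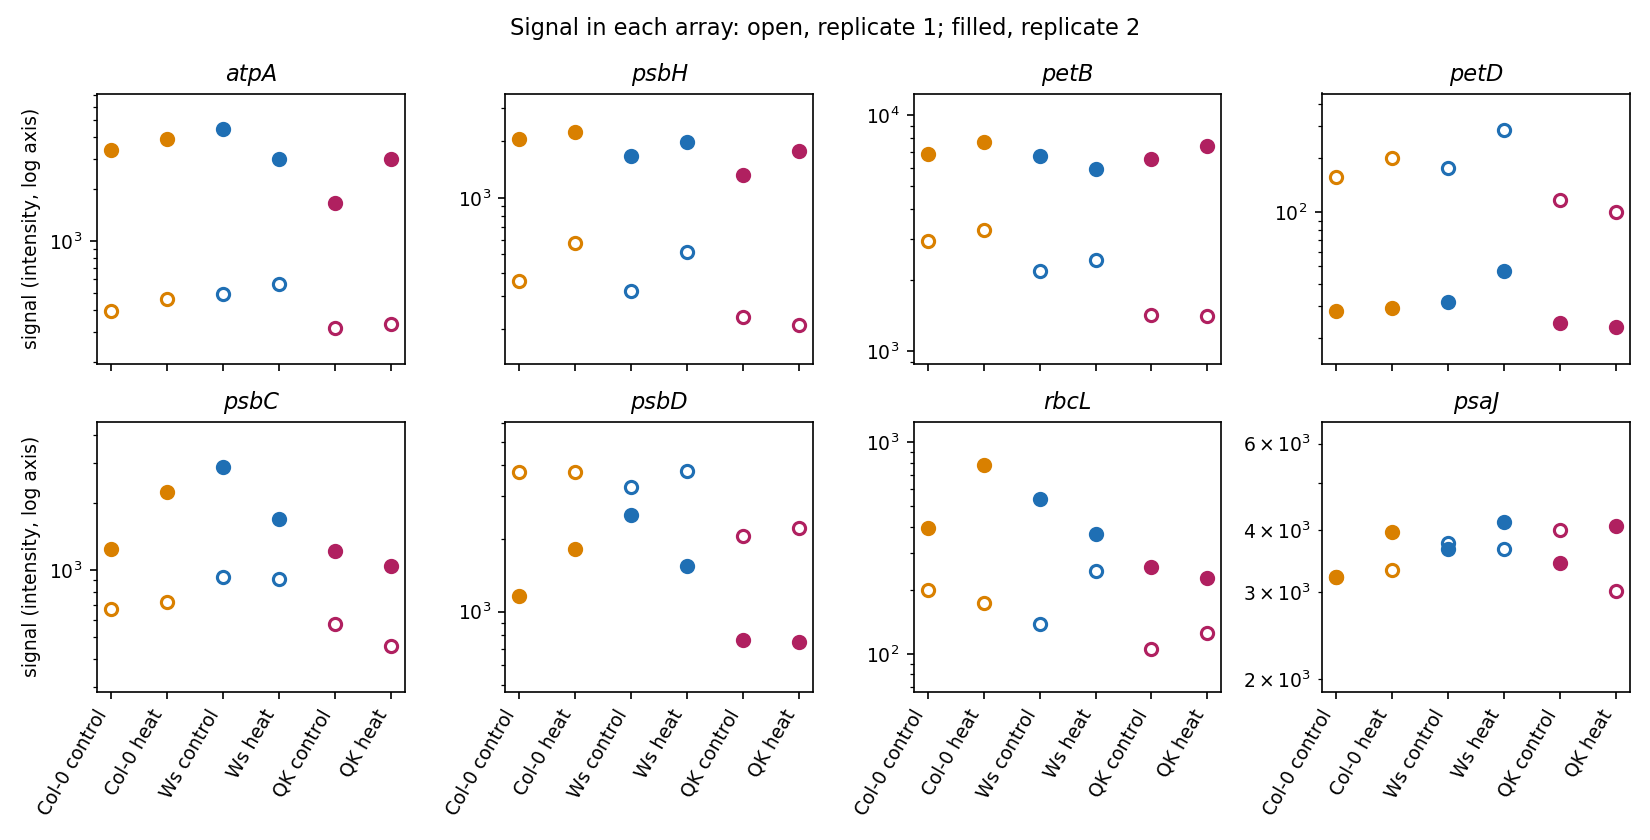
Signal of 8 genes in each of the 12 arrays (y axis, log scale, intensity) by line and temperature (x axis), with open points for replicate 1 and filled points for replicate 2. Replicate 2 lies above replicate 1 in all 6 groups for atpA, psbH, petB, psbC and rbcL and below it in all 6 for petD and psbD, while the points of psaJ interleave.

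Photosystem I reduces ferredoxin at the end of the electron chain. Only psaA, a reaction centre protein and the dimmest probe set of the complex, was called among its 5 genes, and the median was 0.59. The psaA probe set read 430.6, 599.5, 497.2, 753.1, 289.6 and 453.3 in replicate 1 and 1467.4, 1044.5, 1652.8, 1908.4, 562.9 and 993.1 in replicate 2, higher in 6 of 6 pairs by 1.26 on the log2 scale (limma adjusted p = 0.00214). Its partner in the reaction centre, psaB, differed by 0.59 and psaI by 0.78, below the minimum fold with limma adjusted p of 0.00254 and 0.00264. The brightest, psaJ, read 3223.9, 3322.9, 3765.9, 3670.2, 4016.3 and 3012.6 in replicate 1 and 3211.0, 3962.4, 3662.5, 4153.2, 3441.1 and 4085.0 in replicate 2. These values interleaved, and the difference was 0.09 (95% interval -0.19 to 0.37). The iron-sulphur protein psaC was lower in 6 of 6 pairs at -0.49 without passing the test (limma adjusted p = 0.0806).

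NDH carries electrons back from ferredoxin into the plastoquinone pool, around photosystem I. Of its 9 tested genes ndhA (1.33) and ndhJ (1.03) were called higher, and the median was 0.73. The brightest, ndhD, read 3711.3, 3255.6, 3595.4, 3162.7, 3005.9 and 2173.9 in replicate 1 and 1792.3, 2025.5, 2666.0, 2024.5, 1621.2 and 1991.5 in replicate 2. It was lower in 6 of 6 pairs, by -0.52 (limma adjusted p = 0.0299), below the minimum fold. The dimmest tested gene, ndhH, read 34.5, 30.2, 22.9, 28.5, 24.1 and 19.6 in replicate 1 and 151.3, 178.2, 63.7, 66.0, 38.2 and 37.4 in replicate 2. Its replicate 2 arrays in QK also lay below the percentile of the filter, and it was not called with 10 arrays. The differences of ndhC (0.09), ndhE (0.19) and ndhG (-0.23) did not pass the test.

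Rubisco fixes CO2 in the Calvin cycle, and rbcL encodes its catalytic subunit. It read 199.6, 173.1, 138.7, 245.3, 105.9 and 124.9 in replicate 1 and 392.5, 782.4, 538.0, 369.2, 256.3 and 228.3 in replicate 2. It was higher in 6 of 6 pairs, although its lowest replicate 2 array, QK heat, lay below its highest replicate 1 array, Ws heat. Its log2 difference was 1.09 (SE 0.208, limma adjusted p = 0.0133).

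Genes that lie beside each other did not always move alike. Along the atp cluster in genome order the differences were 2.74 for atpA, 1.53 for atpF, 1.103 for atpH and -0.18 for atpI. Along the psbB cluster they were -0.01 (psbB), 0.02 (psbT), 2.42 (psbH), 1.87 (petB) and -1.89 (petD), so that both the largest decrease and the second largest increase of the 42 genes lay in this stretch. The replicate 2 signals of petD lay near or below the percentile of the filter. The reading frames of psbD and psbC overlap, and psbD was at -1.16 with psbC at 1.175 and the following psbZ at 1.25. Across the ndh cluster the values were -0.52 (ndhD), -0.49 (psaC), 0.19 (ndhE), -0.23 (ndhG), 0.74 (ndhI), 1.33 (ndhA) and 0.73 (ndhH). Other neighbours were closer: atpB and atpE at 1.74 and 1.24, and psbE, psbF, psbL and psbJ at 1.15, 0.95, 0.51 and 0.71. Each gene is represented by a single probe set, so these values describe the probed stretch of each message and were not compared with a second probe.

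Without a model, all 6 replicate 2 arrays lay above all 6 replicate 1 arrays for 17 of the 42 genes (40.5%), against 4.57% of all tested probe sets. They lay below for petD alone (2.38%), against 6.31% of all tested probe sets. The 17 were psbA, psbC, psbE, psbF, psbH, psbM, psbZ, petA, petB, petG, petL, atpA, atpB, atpE, atpF, atpH and ndhH, with none from photosystem I. Without the 4 genes that entered mainly through one replicate number, 15 of 38 lay above, against 4.14% of the probe sets that met the same condition, and none (0) lay below, against 6.2%.

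Of the other measured plastid-genome transcripts, mainly for ribosomal proteins and the plastid RNA polymerase, 19 of 24 were called higher in replicate 2 with a median of 1.77. None of the 14 tested mitochondrial-genome transcripts was called (median 0.03, 3 at an unadjusted and 2 at an adjusted p under 0.05). None of the 12 nuclear photosynthesis genes was called (median -0.07), but 5 passed the adjusted p alone in limma, each with a change under 2-fold. LHCB4.2, an antenna protein of photosystem II, was higher in replicate 2 by 0.90 (SE 0.081, limma adjusted p = 0.001) and RCA, which activates Rubisco, by 0.25. Lower were NDHL (-0.61), PETM (-0.52) and ATPC1 (-0.21), nuclear-encoded subunits of NDH, cytochrome b6f and the ATP synthase. LHCB4.1, the other measured green-tissue marker, was at 0.03 (limma adjusted p = 0.7), and the part of LHCB4.2 in the result was not tested. CP29B, a chloroplast RNA-binding protein and the one measured of 12 listed plastid RNA decay and binding genes, differed by -0.84 (limma adjusted p = 0.004). The part of CP29B in the result was not tested either.

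A split of the sums of squares over the 8 Ws and QK arrays, a balanced set of line, temperature and replicate number, describes the same pattern. The median share of the variation in log2 signal, taken for each factor on its own, was 58.58% for replicate number, 19.9% for line, 1.26% for temperature and 8.76% for their interactions. Each combination has a single array, so the interactions share also holds the residual spread. Over all tested probe sets the medians were 16.44%, 11.6%, 23.98% and 17.52%. Over the other plastid-genome transcripts they were 86.46%, 3.19%, 3.94% and 2.93%, so the replicate share was larger there than in the photosynthesis genes. By complex the median share of replicate number was 83.47% for cytochrome b6f, 77.65% for the ATP synthase, 60.52% for rbcL, 58.42% for photosystem II, 53.7% for photosystem I and 46.82% for NDH. Replicate number held the largest share for 30 genes, line for 8, interactions for 3 and temperature for petN alone (48.39%). The matching counts over all probe sets are not given here.

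**Figure D3:**
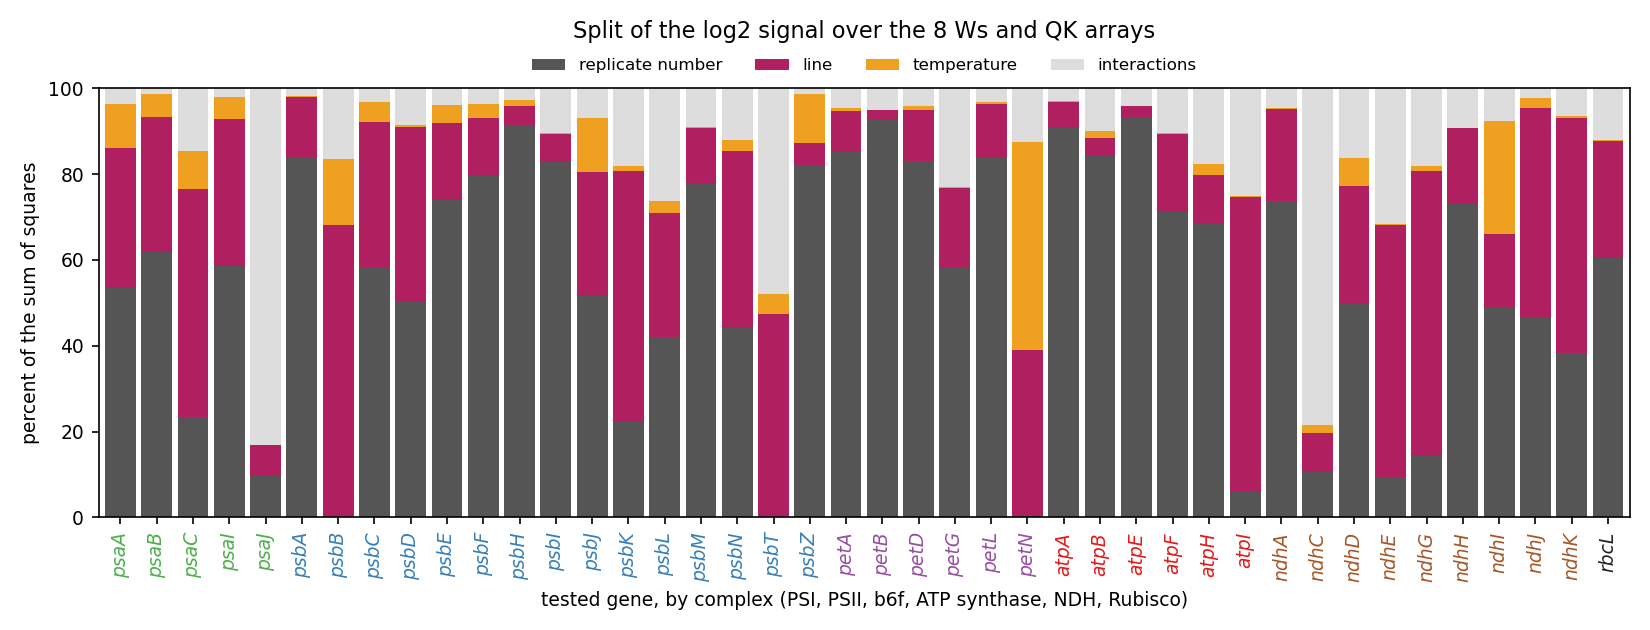
Percent of the sum of squares of log2(signal + 16) over the 8 Ws and QK arrays (y axis) that went with replicate number, line, temperature and their interactions, for each of the 42 tested genes grouped by complex (x axis). Replicate number reaches 93.26% for atpE and 92.79% for petB, line 68.65% for atpI and 68.23% for psbB, and temperature holds the largest share for petN alone, at 48.39%. The interactions share also holds the residual spread.

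The size of the replicate difference was next compared between lines, with all 12 arrays. No probe set was called: 0 of 13631 (0%) for QK against Col-0, for QK against Ws and for Ws against Col-0 (limma, 683, 538 and 335 at an unadjusted p under 0.05, of which 6, 3 and 3 were of these genes). The fits had 3 residual degrees of freedom. Among the 6, 3 and 3 genes, psbA differed between replicates by 0.26 and 0.48 in Col-0 (control and heat pair), by 1.78 and 1.39 in Ws and by 1.297 and 1.79 in QK. The difference in Ws minus that in Col-0 was 1.22 (SE 0.263, limma adjusted p = 1.00). For ndhH the order was the reverse, with 1.73 and 2.07 in Col-0, 1.03 and 0.88 in Ws and 0.43 and 0.58 in QK. Neither passed the test.

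Median differences after heat were small, while the intervals of the genes were wide. After 1 h at 37 °C none of the 42 genes was called in Ws, in QK or in Col-0, where 5.48%, 2.56% and 2.02% of all probe sets were called (limma, 0, 1 and 0 of the 42 at an unadjusted p under 0.05). The median log2 change was 0.07 in Ws, 0.15 in QK and 0.12 in Col-0, the last from 1 array per arm. The corresponding medians of all probe sets were -0.05, 0.00 and -0.10. Without the replicate number in the fit, the 95% intervals of the 42 genes ran from -3.95 to 3.80 in Ws and from -3.30 to 4.23 in QK. Once the replicate number was fitted as a block, the 95% intervals of all 42 genes lay within -1.20 to 1.04 in Ws, -1.04 to 1.41 in QK and -1.37 to 1.81 in Col-0.

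By complex the medians in Ws were 0.26 for photosystem I, 0.05 for photosystem II, 0.25 for cytochrome b6f, -0.02 for the ATP synthase and 0.05 for NDH, with rbcL at 0.12. In QK they were 0.23, 0.20, 0.07, 0.38 and -0.10, with rbcL at 0.03. None of these complexes held a called gene in either line. In the same contrasts 11 of 14 mitochondrial-genome transcripts were called higher in Ws (median 3.39), 11 in QK (3.75) and 10 in Col-0 (3.14). No other plastid-genome transcript of 24 was called, with medians of -0.28 in Ws, -0.44 in QK and -0.37 in Col-0, and no nuclear photosynthesis gene of 12 was, with medians of -0.36, -0.21 and -0.33.

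**Figure D4:**
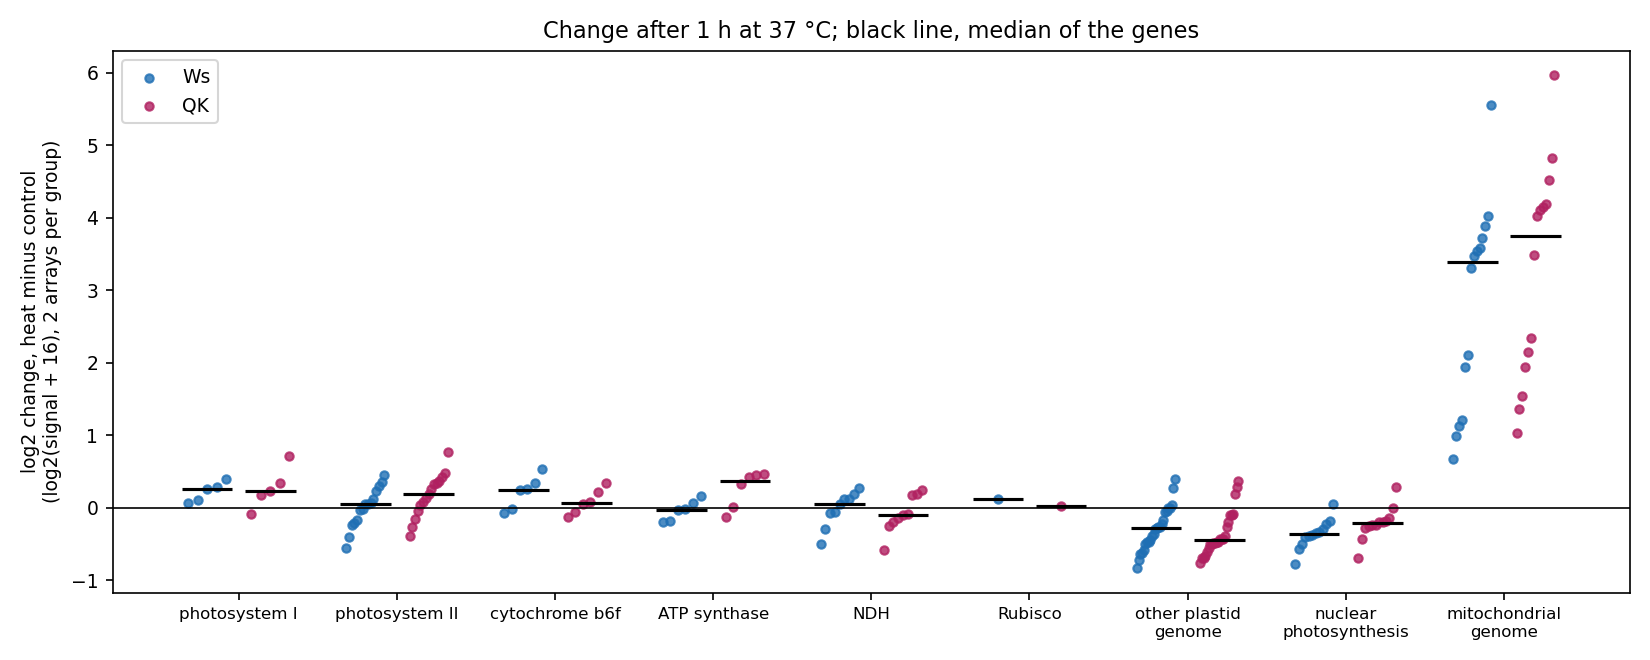
Change in log2(signal + 16) after 1 h at 37 °C (y axis) in Ws and QK, 2 arrays per group, with 1 point per gene and a black line at each median, for the genes of each complex, the other plastid-genome, nuclear photosynthesis and mitochondrial-genome transcripts (x axis). The photosynthesis genes of the plastid genome lie between -0.58 and 0.76, and the mitochondrial-genome medians lie at 3.39 and 3.75.

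The lowest change in Ws and in Col-0 was that of psbZ, a small photosystem II core protein. Its signal in Ws went from 1153.8 to 721.7 in replicate 1 and from 2657.3 to 1958.8 in replicate 2. In QK it went from 910.2 to 634.1 and from 1932.2 to 1612.1, and in Col-0 replicate 1 from 1300.8 to 738.0. All 5 of these pairs were lower after heat, while the pair labelled Col-0 replicate 2 read 1511.0 at control and 2424.0 after heat. The log2 change in Ws was -0.55, with a limma adjusted p of 0.746 without and 0.0288 with the replicate block (SE 0.129 with it), a change under 2-fold. Of all probe sets 13.9% were lower at that adjusted p alone, and psbZ was the one of the 42 genes. Its changes in QK and Col-0, -0.39 and -0.80, had limma adjusted p of 0.0916 and 0.05 with the block, neither of them under the threshold.

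The highest change in Ws was that of petD, from 175.7 to 285.3 in replicate 1 and from 31.7 to 47.4 in replicate 2 (0.53 on the log2 scale, limma adjusted p = 0.856). In QK petD went from 117.1 to 99.9 and from 24.4 to 23.1. The highest in QK was psbB, from 688.3 to 805.9 and from 424.8 to 1072.6 (0.76, limma adjusted p = 0.221), a change carried mostly by replicate 2. The lowest in QK was ndhI, an iron-sulphur subunit of NDH, from 1274.1 to 642.5 and from 1719.9 to 1500.4 (-0.58, limma adjusted p = 0.565). In Ws ndhI went from 1523.9 to 1107.9 and from 2479.6 to 1704.4, and in Col-0 replicate 1 from 2226.2 to 1952.3, so that it too was lower in all 5 pairs.

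In Col-0 replicate 1 the highest change was that of ndhK, a further iron-sulphur subunit, from 71.0 to 143.7 (0.88, limma adjusted p = 0.701). In Ws it read 163.6 and 350.3 at control against 167.9 and 309.7 after heat, and in QK 93.7 and 119.9 against 90.3 and 181.3. Only psaA, psaI, psbJ and petN were higher after heat in all 5 pairs outside Col-0 replicate 2. The share of all probe sets that kept their direction in all 5 pairs is not given here. For petN the pairs read 81.4 to 115.6 in Col-0, 104.1 to 126.4 and 106.7 to 149.3 in Ws, and 87.7 to 118.8 and 77.6 to 98.9 in QK, and the pair labelled Col-0 replicate 2 read 90.6 to 117.4. Its log2 change was 0.34 in both Ws and QK, with limma adjusted p of 0.282 and 0.318 without the replicate block.

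The heat response of QK minus that of Ws, the test of whether the lines responded differently, called none of the 42 genes, against 1.34% of all probe sets (limma, 0 of the 42 at an unadjusted p under 0.05). The differences ran from -0.65 for petD to 0.65 for atpA, with a median of 0.09. For atpA the QK signal went from 313.0 to 332.6 in replicate 1 and from 1662.6 to 2992.2 in replicate 2, while in Ws it went from 491.3 to 568.0 and from 4459.8 to 2974.2.

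QK seedlings had lower signals than Ws seedlings for nearly all of these genes. At control 40 of 42 genes were lower in QK with a median of -0.55 on the log2 scale, and after heat 42 of 42 were, with a median of -0.53, against medians of 0.00 and 0.04 over all probe sets. In the 4 pairs of arrays matched for temperature and replicate number, 32 genes were lower in QK in 4 of 4 and 9 in 3 of 4. The medians of the other plastid-genome transcripts were -0.25 and -0.29, those of the mitochondrial genome -0.09 and 0.31, and those of the nuclear photosynthesis genes -0.31 and -0.09. A difference of at least 2-fold, whatever its p, was found for 8 of the 42 genes at control and for 2 after heat. Shares of all probe sets that met this rule, or were lower in 4 of 4 pairs, are not given here. The root marker PYK10 was at 0.59 at control (limma adjusted p = 0.601) and was called higher in QK after heat, by 1.15 (SE 0.197, limma adjusted p = 0.025). EXPA7 was at 0.30 and 0.25 and was not called, and the part of these markers in the result was not tested. Both markers were themselves lower after heat, PYK10 by -1.44 in Ws and -0.89 in QK, and EXPA7 by -1.01 and -1.06.

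None of the 42 genes was called in these contrasts, against 0.183% of all probe sets at control and 4.64% after heat (limma, 3 of the 42 at an unadjusted p under 0.05 in each). Once the replicate number was a block, none of the 42 was called at control (0.763% of all probe sets). In that fit 23 of the 42 had an unadjusted p under 0.05 in limma at control and 23 after heat. The share of all probe sets at that unadjusted p is not given here. After heat 2, ndhJ and petD, were called lower (3.55% of all probe sets). The same genes were called in that contrast with all 12 arrays and the block, where 0.792% of all probe sets were. At the adjusted p alone, 9 genes passed after heat, against 6.6% of all probe sets: psaA, psaI, psbA, psbC, petD, petL, ndhA, ndhJ and ndhK.

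The lowest of these was ndhJ, a subunit of the NDH arm that faces the stroma. In QK it read 105.4 and 238.6 at control and 121.2 and 278.2 after heat, and in Ws 211.0 and 535.8 at control and 322.9 and 528.2 after heat, replicates 1 and 2 in turn. QK was lower in all 4 pairs, by -1.01 at control and -1.10 after heat. With the block the SE was 0.167 in both and the limma adjusted p 0.0581 and 0.00885. Without it the limma adjusted p was 0.907 and 0.449. Col-0 read 157.1 and 452.7 at control and 195.7 and 536.0 after heat, between QK and Ws in replicate 1.

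After heat petD read 99.9 and 23.1 in QK and 285.3 and 47.4 in Ws, a difference of -1.04 (SE 0.184, limma adjusted p = 0.015 with the block and 0.742 without). In replicate 2 the QK array lay below the percentile of the filter and the Ws array close to it. At control psbB had the lowest difference, with 688.3 and 424.8 in QK against 1203.0 and 1567.3 in Ws (-1.32, SE 0.270, limma adjusted p = 0.0927 with the block). The replicate 2 pair held most of it. At the other end, ndhC, a membrane subunit of NDH, read 2107.5 and 1841.0 in QK and 1663.1 and 2107.9 in Ws at control (0.07), and 1620.8 and 1818.8 against 1996.0 and 2072.8 after heat. The smallest difference after heat was that of psaJ (-0.15).

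**Figure D5:**
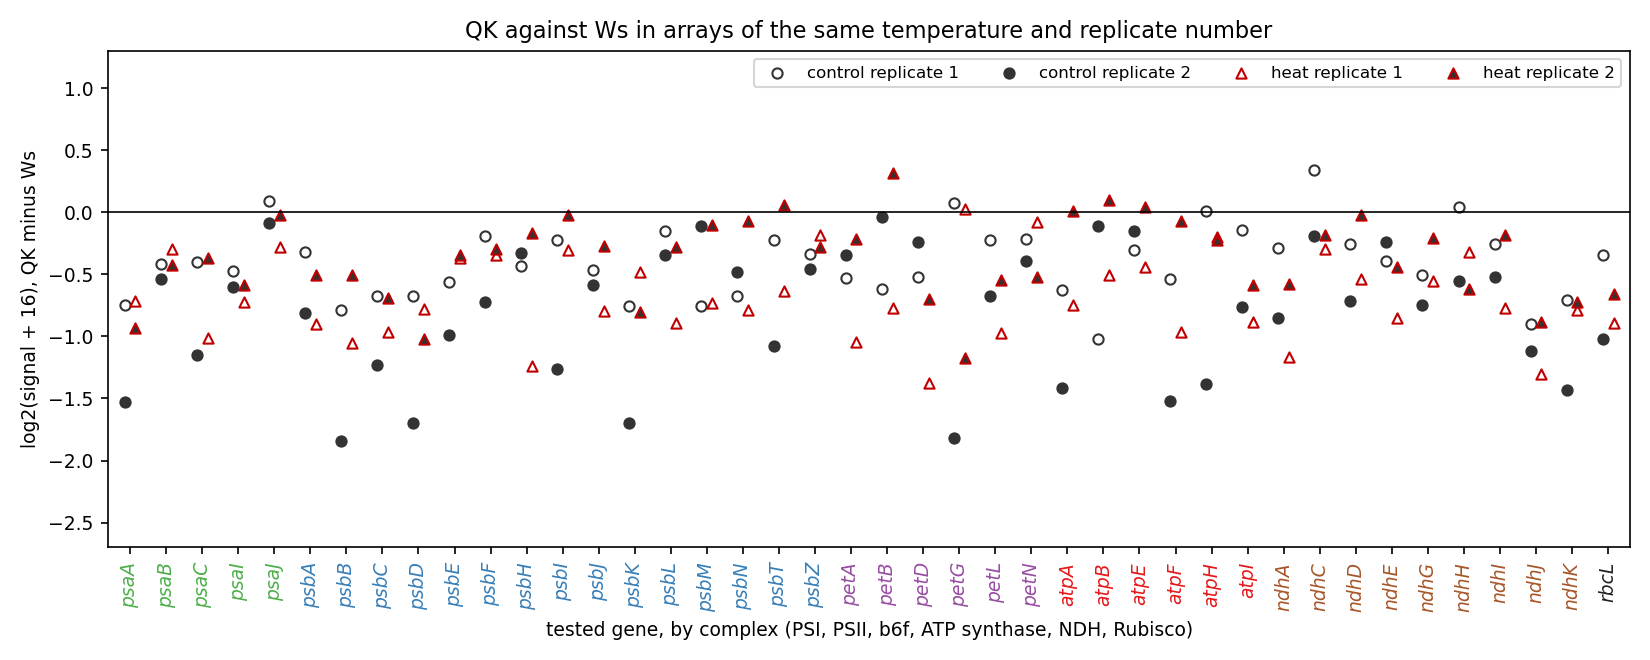
Difference in log2(signal + 16), QK minus Ws (y axis), for each of the 42 tested genes grouped by complex (x axis), with 1 point for each pair of arrays of the same temperature and replicate number. All 4 points lie below 0 for 32 genes; the fitted medians are -0.55 at control and -0.53 after heat.

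Against Col-0 the comparison depended on the replicate number, because the 10 arrays hold Col-0 in replicate 1 alone while QK and Ws have both. Without the block the median QK minus Col-0 difference was -0.04, from -1.55 for psbD to 0.97 for atpA, and no gene was called, against 2.45% of all probe sets (limma, 5 of the 42 at an unadjusted p under 0.05). With the block the median was -0.49, and 3 genes were called lower, against 2.2% of all probe sets: ndhA (-1.29, SE 0.187, limma adjusted p = 0.0112), ndhI (-1.15, SE 0.178, limma adjusted p = 0.0142) and psbB (-1.08, SE 0.252, limma adjusted p = 0.0493). At the adjusted p alone, 8 passed (psaB, psbA, psbB, psbE, psbF, psbM, ndhA and ndhI), against 4.63% of all probe sets. Of these, psbA was lower in QK than in Col-0 in replicate 1 (-0.73) but higher in replicate 2 (0.45), which this fit lacks for Col-0. The others were lower in both. The fit with all 12 arrays, which averages Col-0 over both temperatures and so over both doubtful arrays whichever way they are labelled, called psbB (0.624% of all probe sets), and with the block it called ndhA, ndhI, psbB, psbI and psbK (1.08%). With all 12 arrays and the block, 27 of the 42 had an unadjusted p under 0.05 in limma. The matching share of all probe sets is not given here.

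The signals of ndhA, a membrane subunit at the junction of the NDH arms, were 704.6 and 1857.9 at control and 507.5 and 2359.8 after heat in Col-0. In Ws they were 345.3 and 1126.3, then 457.0 and 922.8, and in QK 280.5 and 618.1, then 194.8 and 614.1. QK was lowest and Col-0 highest in both replicates at both temperatures. For ndhI, Col-0 (1952.3 to 3733.8) lay above Ws (1107.9 to 2479.6) and QK (642.5 to 1719.9) within each replicate number. In psbB the Col-0 arrays (1351.6 to 1935.0) overlapped the Ws arrays (1203.0 to 1691.5), and all QK arrays (424.8 to 1072.6) lay below both. In all, 36 of 42 genes were lower in QK than in Col-0 in both replicate numbers, and the share of all probe sets that were is not given here.

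Between Ws and Col-0 none of the 42 genes was called, against 0.558% of all probe sets (limma, 2 of the 42 at an unadjusted p under 0.05). The median Ws minus Col-0 difference was 0.29 without the block, from -0.75 for petD to 1.67 for atpA, and 0.07 with it, from -0.72 for ndhI to 0.71 for ndhK. In replicate 1 and in replicate 2 alike, 21 genes were higher in Ws and 12 were lower. The shares of all probe sets that were so are not given here. With the block ndhI had a limma adjusted p of 0.119 and ndhK of 0.120.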

How the data were processed

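The signal intensities, deposited by the authors on a linear scale, came from 6 ug of total RNA per the labels' protocols and GCOS 1.4 per the submitters' processing notes. The summary algorithm, scaling and genome build are not given in the sources used here, so no coordinates are printed and gene order follows the reference table. Of the single-gene probe sets 10340 matched that table, while 398 probe sets had several genes and 7671 none listed.

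From these values log2(signal + 16) was computed and fitted by group means (limma 3.58.1, R 4.3.3, mean-variance trend, two-sided, Benjamini-Hochberg over 13631 probe sets). Residual degrees of freedom were 4 with 10 arrays, 3 with the replicate number added and 6 with 12 arrays. With 10 arrays each Col-0 group has 1 array, assumed to vary like the other groups. Same-numbered deviations from the group means correlated at 0.587 to 0.807 in 6 of 6 pairs of Ws and QK groups. In the 9 pairs with a Col-0 group, over all 12 arrays, they ranged from -0.173 to 0.565, with 8 over 0.1. The numbers, from labels that describe a repeated experiment, were taken to pair the samples, and blocked values stand beside results they change.

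The genes, lists and tests were chosen with earlier results of these data known. By rule every gene of the 6 complexes may be named, and each array's value is given for rbcL, the brightest and dimmest gene of each other complex and the extremes of each contrast. None (0) of 15 listed plastid transcription genes and of 7 seed markers had a single-gene probe set. The procedure was run on simulated arrays with a spread below the fitted one and without the filter on dim probe sets. That run therefore does not test the filtered procedure at the spread of these arrays. Alternatives changed the arrays, scaling, constant, filter, variance trend and minimum fold.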

Additional observations from a re-analysis of the deposited data

How the results depend on the processing

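The count of 22 genes called between replicates ran from 18 to 22 when single arrays were left out, and the counts of 0 in the other comparisons stayed at 0. A Col-0 replicate 1 array is the only one of its group in that fit. Leaving it out gives no Col-0 value and does not change the estimated replicate difference. For QK against Ws after heat the count of 0 became 2 with the replicate block, with 10 or with 12 arrays. For QK against Col-0 it became 1 with 12 arrays, 3 with the replicate block and 5 with both. The replicate block changed no other call. Between replicates, leaving out either Ws control array ended the calls of atpH (0.91), petG (0.94), ndhJ (0.95) and rbcL (0.84). Leaving out either Ws heat array ended those of atpH (1.06), petG (1.14) and psbD (-1.11), either QK heat array those of atpH (1.07) and psbM (0.89), and either QK control array that of psbM (0.99). A constant of 64 ended the calls of petG (0.67), ndhJ (0.87) and rbcL (0.90). Without the block, leaving out an array mixes the replicate difference into a contrast: petD in QK against Ws after heat became 0.087 without Ws heat replicate 1 (range -2.16 to 0.09), and psbZ after heat in Ws became 0.159 without Ws heat replicate 1 and 0.045 without Ws control replicate 2 (range -1.26 to 0.16). Over all values for single genes, those just named included, 547 kept their direction and side of the threshold, 24 lost a call, 11 gained one and 3 turned sign, none of the 3 under another scaling, filter or trend. With 2 arrays per group and 3 to 6 residual degrees of freedom the intervals stay wide, and ndhF was too dim to test.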
